A study of Sus scrofa with 4 samples.

Results

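Cells with cartilage-gene transcripts were looked for in regenerated bone of mini-pigs, and 129 of 44608 kept barcodes met the rule. The rule kept barcodes with at least 200 genes, at least 1000 UMIs (unique molecular identifiers, each standing for 1 captured RNA molecule) and under 20% of UMIs in mitochondrial genes. It then asked for at least 3 of 8 cartilage genes with a UMI, a sum of at least 5 UMIs over those genes, and no UMI of CD3E, CD79B or CSF1R, which mark T cells, B cells and mononuclear phagocytes. The 8 genes were ACAN, COL2A1, COL9A1, COL11A2, HAPLN1, MATN1, MATN3 and SOX9. Measured values thus chose the cells, and the levels of these 8 genes are a description with no test. The working name of the cells was chondrocytes. COL2A1 led the 8 genes in 39 of the 129 cells, most of which carried chondrocyte markers together, and was at or near 0 in most others. The data thus go against the name for the set as a whole, which is called the gated cells here.

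Chondrocytes are the cells of cartilage. They secrete a matrix of collagen II fibrils, made with collagens IX and XI, and of aggrecan, a large proteoglycan that holds water and is tied to hyaluronan by link protein. SOX9 with SOX5 and SOX6 turns these genes on. In bone that heals through a cartilage template, chondrocytes enlarge, switch to collagen X and mineral-related genes under RUNX2, and are replaced by bone, whose osteoblasts make collagen I.

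Regenerated bone was taken from Bama mini-pigs, a small pig strain, aged 8 months. There were 2 libraries labelled as the 1797 peptide group and 2 labelled as the control peptide group, and what each peptide is was not given in the sources used here. Where a pair of values is given for a group, as for "1797 bone" or "control bone", they are those of its libraries 1 and 2. The 4 libraries shared tissue, strain, age and digestion with collagenase. The series design speaks of further control samples, which were not analysed here. No label states whether a separate animal gave each library, so p-values measure the spread between these libraries only, which may be technical.

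The libraries held 12133 to 14496 barcodes and 87844389 to 98758412 UMIs each, and 10286 to 11923 barcodes per library were kept, with a median of 4839 to 6225 UMIs. The gated cells were far deeper, with a median of 36904 UMIs and 5608 genes (lowest 1340 UMIs, highest 116630 UMIs). A rule that asks for several transcripts finds deep cells more easily, and its part in the results was measured by thinning, given below. Scrublet, a doublet caller, marked 0 of the 129 cells. Pairs of libraries shared 29 to 39 kept barcode sequences, and 0 gated cells shared a barcode with a gated cell of another library.

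Which of the 8 genes had the most UMIs divided the gated cells sharply. This division was made after the values were seen and carries no test. In 39 cells COL2A1, the collagen II gene (chromosome 5, positions 78350131 to 78380893 of Sscrofa11.1, a protein-coding gene), led. ACAN, the aggrecan gene (chromosome 7, 54449830 to 54520606), led in 54 cells and SOX9 (chromosome 12, 8642154 to 8647315) in 14. The other 22 cells were led by COL11A2 (5), MATN3 (5) or HAPLN1 (4), or had a tie (8).

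Most COL2A1-led cells carried several chondrocyte markers. COL2A1 took a median of 2.02% of all UMIs of such a cell (lowest 0.0949%, highest 10.7%), with a median of 501 UMIs and a highest of 4616. Of the 39 cells, 37 had ACAN, 37 had HAPLN1, which encodes link protein, 29 had SOX9, 28 had COL9A1, 31 had COL11A2, 20 had MATN3 and 11 had MATN1. The lowest COL2A1 counts were 3, 6 and 9 UMIs, in cells of 1340, 1479 and 5630 UMIs from the 1797 libraries that had 0 SOX9 UMIs and 11, 5 and 8 UMIs of PTPRC, a gene of all leukocytes. COL1A1, the collagen I gene of bone and fibrous tissue (chromosome 12, 26379087 to 26397180), had a median of 8 UMIs in the COL2A1-led cells. COL1A1 nonetheless exceeded COL2A1 in 9 of the 39 cells.

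The ACAN-led cells carried fewer of the fibril collagen markers. Their ACAN level was moderate, at a median of 24 UMIs, and COL2A1 had a median of 0 and a highest of 2 UMIs. Of the 54, 17 had any COL2A1 UMI, 8 had COL9A1, 4 had COL11A2 and 0 had MATN1, while 47 had SOX9, 31 had HAPLN1 and 24 had MATN3. A cell with few collagen UMIs needed such genes to meet the rule. Summed over these cells, COL2A1 stood at 7.72 CPM (counts per 1000000 UMIs, scaled to all UMIs of the set), against 34481 CPM in the COL2A1-led cells and 6.85 CPM in osteoblast lineage cells. COL1A1, by contrast, was present in all 54, at a median of 952.5 UMIs. All 54 also met the gate for osteoblast lineage cells and that for fibroblast-like stromal cells.

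Across all 129 gated cells, 115 met the osteoblast gate (at least 3 genes of a marker list that includes ALPL, BGLAP, COL1A1, IBSP, RUNX2 and SP7, sum at least 5), 112 met the fibroblast gate and 121 met at least one of them. Of the 39 COL2A1-led cells, 28 met the osteoblast gate. The gates were applied in order with the cartilage rule first, so a deep collagen I cell with a few ACAN, SOX9 and HAPLN1 UMIs was counted as a gated cell. When every kept barcode was thinned to 1000 UMIs and the sum asked for lowered to 3, 43 cells met the rule. After thinning, COL2A1 was still seen in 38 of the 39 COL2A1-led cells and in 0 of the 54 ACAN-led cells, while COL1A1 was seen in 52 of the 54.

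**Figure D1:**
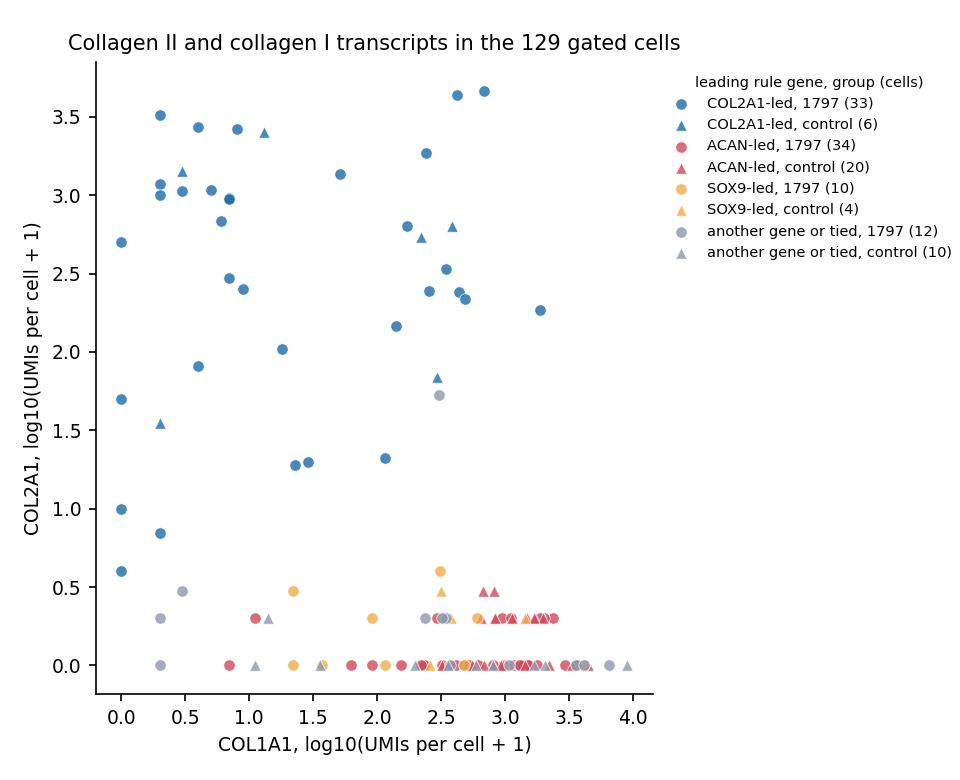
Each point is 1 of the 129 gated cells, with COL1A1 UMIs on the horizontal axis and COL2A1 UMIs on the vertical axis, both as log10 of the count plus 1; colour gives the leading rule gene and shape the peptide group. The COL2A1-led cells lie high on the vertical axis, with a median of 501 COL2A1 UMIs, and the ACAN-led cells lie along the bottom right, with a median of 952.5 COL1A1 UMIs.

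The remaining 36 cells, led by SOX9 or another gene or tied, were mixed. COL1A1 was present in all 36, at 30501 CPM summed over them, and COL2A1 stood at 53.8 CPM. Endothelial markers (PECAM1, CDH5, VWF, KDR, EMCN and TIE1) summed to 446 CPM in these cells, against 37.1 CPM in the COL2A1-led and 45.9 CPM in the ACAN-led cells. That sum rests on few cells: 4 of the 36 met the endothelial gate and had 30, 95, 96 and 106 of the 372 PECAM1 UMIs, and 2 of those 4 had 1 COL1A1 UMI each. One cell led by HAPLN1 had 52 COL2A1, 17 COL9A1, 36 COMP and 23 CNMD UMIs, although COL2A1 did not lead in it. The part of the endothelial transcripts in the results was not tested.

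Leukocyte transcripts were present at low levels. PTPRC had a UMI in 71 of the 129 cells, and in 30 of the 33 of control library 2. Over the 4 libraries, the summed T cell markers ranged from 3.37 to 13.9 CPM in the gated cells, with CD3D and CD3E at 0, and the B cell markers from 0 to 8.42 CPM, with CD79B at 0. The neutrophil markers were uneven. They summed to 15.2 and 573 CPM in 1797 libraries 1 and 2 and to 13.9 and 816 CPM in control libraries 1 and 2. The rule itself set CD3E, CD79B and CSF1R to 0.

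That zero rule removed many barcodes. Of 251 barcodes that met the gene part, it removed 122, of which 66 came from control library 2 and 62 had a single UMI of the 3 genes in total. COL2A1 led in 23 of the removed barcodes (12 and 5 in 1797 bone, 3 and 3 in control bone). At the edge of the rule, 5 gated cells had a sum of exactly 5, 7 barcodes with enough genes had a sum of 4, and 82 reached the sum with 2 genes only.

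Transcripts found outside the cells that make them set a background for these genes. T cells, which should lack COL2A1, had a COL2A1 UMI in 8.92% and 6.90% of barcodes in 1797 bone and in 0.721% and 4.64% in control bone, at median depths of 7220.5 to 7976 UMIs. ACAN was seen in 0.670% to 2.75% of the same barcodes, and SOX9 in 0.155% to 1.11%. COL1A1 was seen in 16.3% to 75.6%. The COL2A1 counts of the ACAN-led cells, at most 2 UMIs in cells of a median of 43829.5 UMIs, are not read as expression.

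At full depth, the share of gated cells did not separate the peptide groups. It was 0.661% of kept barcodes (68 cells, 95% exact Clopper-Pearson interval 0.514% to 0.837%) and 0.178% (21 cells, 0.110% to 0.272%) in 1797 bone. In the control libraries it was 0.0587% (7 cells, 0.0236% to 0.121%) and 0.311% (33 cells, 0.214% to 0.437%). These intervals cover counting error only. The groups overlapped, since control library 2 lay above 1797 library 2. The mean was 0.420% ± 0.342 (SD, n = 2) against 0.185% ± 0.178 (SD, n = 2), a log2 ratio of 1.18 ± 1.17 (SE) with an adjusted p of 0.928 by edgeR's quasi-likelihood test over 11 classes, of which 0 were called. The value rested on 1797 library 1, without which the log2 ratio was -0.048, and leaving out control library 2 gave 2.81. With every barcode thinned to 1000 UMIs the cells numbered 24 and 13 against 2 and 4. Here the groups did not overlap. The log2 ratio was 2.61, with an adjusted p of 0.405 by the same test, so the share was not called.

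The sets differed in how they fell over the libraries. COL2A1-led cells numbered 22 and 11 in 1797 bone and 2 and 4 in control bone. These were 0.214% and 0.0933% against 0.0168% and 0.0377% of kept barcodes, and here the groups did not overlap. The 95% Clopper-Pearson intervals of the nearest libraries did overlap. They were 0.0466% to 0.167% in 1797 library 2 and 0.0103% to 0.0965% in control library 2. ACAN-led cells numbered 29 and 5 against 1 and 19, and here the groups overlapped. The sets were defined after their values were seen, so these shares are a description with no test. The osteoblast lineage class, which shares most of its markers with the ACAN-led cells, took 4.24% and 0.424% of the 1797 libraries against 1.53% and 3.63% of the control libraries.

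**Figure D2:**
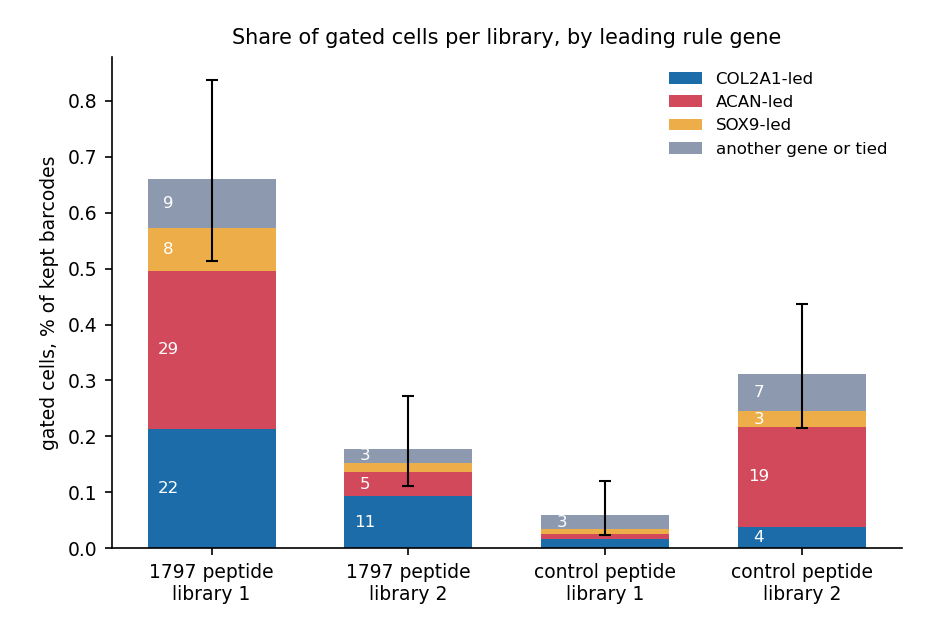
Bars give the gated cells as a percentage of kept barcodes in each of the 4 libraries, divided by leading rule gene, with numbers of cells beside the larger parts; black lines are the 95% Clopper-Pearson intervals of the whole share. The whole share overlaps between the groups, while the COL2A1-led part was 0.214% and 0.0933% in 1797 bone against 0.0168% and 0.0377% in control bone.

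The gene programs of the sets are given next as CPM summed over the 4 libraries, with UMIs from transcript ends and thus not divided by gene length. The gene lists were drawn up for cartilage, bone and stress, and no difference between the sets was tested. Within each list, the genes with the most UMIs are named unless another choice is stated.

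The fibril partners of collagen II followed it. COL11A1 stood at 10664 CPM in COL2A1-led against 865 CPM in ACAN-led cells, COL9A3 at 2790 against 5.28 CPM, COL9A2 at 2584 against 6.90 CPM, and COL27A1 at 503 against 231 CPM. Collagen IX coats the surface of the fibril and collagen XI sits in its core. The 5 cartilage collagens outside the rule summed to 12483 to 18589 CPM in the COL2A1-led cells of the 4 libraries and to 1052 to 1335 CPM in the ACAN-led cells, with no overlap. COL11A1 was the one with most UMIs in both sets.

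Other matrix genes showed the same contrast for the cartilage-restricted members. COMP, a pentameric glycoprotein that binds collagen II and IX, stood at 1979 against 0.812 CPM, with a UMI in 30 of 39 COL2A1-led and 2 of 54 ACAN-led cells. CNMD, which encodes chondromodulin, a cartilage protein that keeps vessels out, stood at 3053 against 3.25 CPM (26 of 39 cells against 3 of 54). C15H2orf82, the pig symbol for the small cartilage proteoglycan snorc, stood at 3053 against 2.44 CPM. MGP, an inhibitor of calcification, stood at 9848 against 163 CPM. COMP, CNMD and C15H2orf82 were named after their values were seen.

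General matrix genes were divided. SPARC, which binds collagen and mineral, stood at 4134 CPM in COL2A1-led and 4962 CPM in ACAN-led cells. DCN, the small proteoglycan decorin, was lower in the COL2A1-led cells, at 459 against 1073 CPM, and TNC, tenascin C, stood at 175 against 1255 CPM. FN1, fibronectin, was higher in the COL2A1-led cells and stood at 14957 against 3524 CPM.

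**Figure D3:**
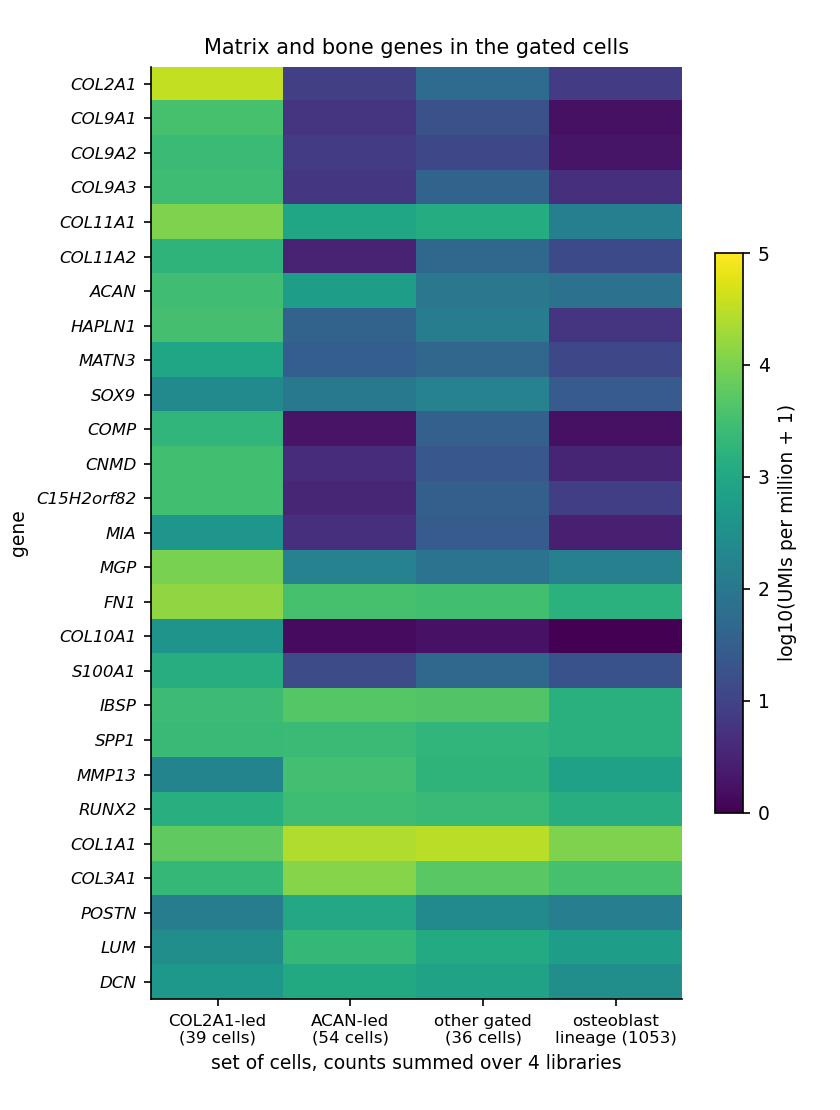
Colour gives log10 of CPM plus 1 for each gene (rows), with counts summed over 4 libraries in each set of cells (columns). COL2A1 (34481 CPM), COL9A2, COL9A3, COMP and CNMD (3053 CPM) are bright in the COL2A1-led column and dark in the ACAN-led and osteoblast lineage columns, COL11A1, ACAN and SOX9 differ less, and COL1A1 is highest in the ACAN-led cells and in the other gated cells, at 25281 and 30501 CPM.

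Transcription factors outside the rule were present in both sets. SOX9, which the rule used, stood at 246 CPM in COL2A1-led and 104 CPM in ACAN-led cells. Thinned to 1000 UMIs, 5 of 39 and 2 of 54 cells had a SOX9 UMI. SOX6 stood at 1440 against 502 CPM, and SOX5 at 754 against 513 CPM. RUNX2, which drives hypertrophy and bone formation, stood at 1419 CPM in COL2A1-led and 2839 CPM in ACAN-led cells. TRPS1 stood at 2412 against 905 CPM and ZBTB20 at 1808 against 721 CPM, and both are known in growth plate chondrocytes.

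Enzymes that build the sulfated sugar chains of aggrecan were present in both sets. XYLT1, which starts the chain, stood at 1809 CPM in COL2A1-led and 639 CPM in ACAN-led cells, and CHST11, which sulfates chondroitin, at 1558 against 657 CPM. PAPSS2, which makes the sulfate donor and was named after its value was seen, stood at 412 against 45.5 CPM. EXT1, which extends heparan sulfate and not chondroitin chains, went the other way, at 322 against 1646 CPM. The 18 genes of the list summed to 6918 CPM in COL2A1-led cells and 5141 CPM in ACAN-led cells, which is a smaller contrast than for the collagens.

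Collagen folding and cross-linking genes barely differed in sum, at 5102 CPM in COL2A1-led and 5097 CPM in ACAN-led cells for 20 genes. PLOD2, a lysyl hydroxylase, stood at 1073 against 869 CPM and SERPINH1, the collagen chaperone HSP47, at 549 against 867 CPM. LOX, which cross-links collagen and was named after its value was seen, stood at 96.0 against 344 CPM.

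Fibrous matrix genes marked the ACAN-led cells. COL1A1 stood at 25281 CPM in them and 5924 CPM in the COL2A1-led cells, COL3A1 at 12235 against 2149 CPM and LUM, lumican, at 2175 against 288 CPM. COL12A1 was the exception among those named, at 2886 against 4582 CPM. The 11 genes summed to 12491 to 37268 CPM in the COL2A1-led cells and to 40608 to 79919 CPM in the ACAN-led cells of the 4 libraries, so the ranges did not overlap.

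Proteases and their inhibitors were also higher in the ACAN-led cells, at 10833 against 3210 CPM in sum. MMP13, a collagenase of hypertrophic cartilage and of osteoblasts, stood at 3234 CPM in ACAN-led and 183 CPM in COL2A1-led cells (51 of 54 and 19 of 39 cells). TIMP1, a metalloprotease inhibitor, stood at 2547 against 752 CPM. HTRA1, a serine protease, stood at 939 against 241 CPM. ADAMTS5, an enzyme that cuts aggrecan and was named after its value was seen, stood at 117 against 4.75 CPM.

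The ACAN-led cells also carried genes not on the cartilage lists. Among the 30 genes with the largest ratio to COL2A1-led cells, and so chosen after their values were seen, TNFSF11, the osteoclast-inducing ligand RANKL (chromosome 11, 24468011 to 24505421), stood at 487 against 5.70 CPM and had a UMI in 47 of 54 cells against 3 of 39. SFRP4, a secreted Wnt antagonist (chromosome 9, 108404314 to 108414335), stood at 731 against 2.85 CPM. SEMA3A, a guidance molecule, stood at 636 against 1.90 CPM, and ADAM12, a membrane metalloprotease, at 732 against 25.7 CPM. Each was present in 43 or more of the 54 cells.

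Within the COL2A1-led cells, a further division was visible between CNMD and IBSP, which encodes bone sialoprotein, a mineral-binding protein. CNMD exceeded IBSP in 21 cells and IBSP exceeded CNMD in 18. All 21 of the former came from the 1797 libraries (14 and 7). The 18 came from all 4 libraries, with 8 and 4 in the 1797 group and 2 and 4 in the control group. Median depth was similar, at 24796 and 22204 UMIs. Only 6 COL2A1-led cells came from the control libraries, so absence of cells with CNMD above IBSP from control bone cannot be read from them. The division is by order and not by level: the lowest CNMD count among the 21 cells and the lowest IBSP count among the 18 was 1 UMI. It too was made after the values were seen.

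Several cartilage matrix genes were higher in the cells with CNMD above IBSP, in sum. MATN3, which encodes matrilin 3, an adaptor of the collagen IX network, stood at 1459 CPM against 4.60 CPM in the cells with IBSP above CNMD, COMP at 3069 against 430 CPM, and COL9A1 at 5456 against 919 CPM. COL2A1 stood at 45497 against 18822 CPM. The other gated cells stood at 53.8 CPM or less, a contrast that the choice of COL2A1-led cells largely set.

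Genes of the hypertrophy list were divided between the subsets. COL10A1, the collagen X gene that marks hypertrophic chondrocytes (chromosome 1, 81766829 to 81773818), stood at 916 CPM in the cells with IBSP above CNMD and was found in 7 of 18, against 0 of 21. Of the 398 COL10A1 UMIs, 225 came from 1 cell of control library 2 and 113 from 1 cell of 1797 library 1, so the summed level describes few cells. SPP1, osteopontin, stood at 5606 against 93.9 CPM. RUNX2 and ENPP1 went the other way, at 557 against 2026 CPM and 343 against 1093 CPM. PTH1R, the receptor for parathyroid hormone-related protein, stood at 672 against 143 CPM. IHH, the hedgehog ligand of prehypertrophic cells, had a UMI in 3 cells of each subset, at 25.3 and 9.72 CPM. By library, COL10A1 in COL2A1-led cells stood at 224 and 0 CPM in the 1797 group and at 44.8 and 2073 CPM in the control group, so the groups overlapped.

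Signs of stress and of other cells moved with that division. The heat-shock gene HSP70.2 stood at 2065 CPM in the cells with IBSP above CNMD and 266 CPM in the others, and GAPDH at 4984 against 1228 CPM. S100A12 and S100A9, which neutrophils make, stood at 1091 and 534 CPM in the former against 47.0 and 14.6 CPM, in 7 of 18 cells for each. The part of these genes in the division was not tested. All 21 cells with CNMD above IBSP came from the 1797 libraries, while 2 and 4 of the 18 came from the control libraries. The sums given for the subsets thus mix library with subset in part, although both 1797 libraries held cells of each. In 1797 library 1, MATN3 had a UMI in 13 of 14 cells with CNMD above IBSP against 0 of 8 others. In 1797 library 2 it was 5 of 7 against 0 of 4. HAPLN1 went the other way in 1797 library 1, at 12 of 14 against 8 of 8. These counts carry no test.

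**Figure D4:**
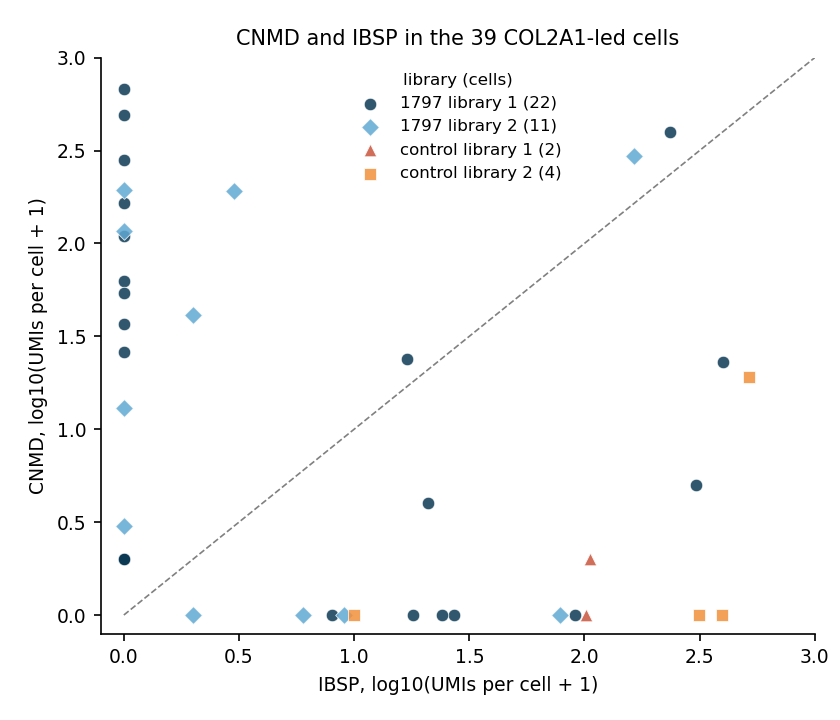
Each point is 1 of the 39 COL2A1-led cells, with IBSP on the horizontal and CNMD on the vertical axis, both as log10 of UMIs plus 1; colour and shape give the library and the dashed line marks equal counts. The 21 cells above the line come from the 1797 libraries, and the 6 control cells are among the 18 below it.

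Few gated cells were dividing by their transcripts. MKI67 had a UMI in 1 of 39 COL2A1-led and 9 of 54 ACAN-led cells, and TOP2A in 4 and 12. Of the articular surface genes, PRG4, lubricin, had 2 UMIs in all and GDF5 had 1, while CLU, clusterin, stood at 1308 CPM in COL2A1-led and 2254 CPM in ACAN-led cells. Of the growth plate genes, GLI3 and GLI2, which relay hedgehog signals, stood at 324 and 191 CPM in COL2A1-led cells, and PTHLH had 5 UMIs in 3 cells. At this number of cells, levels near 1 UMI cannot be told from 0.

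Metabolic and stress lists were compared in the same way. The 29 hypoxia and glycolysis genes summed to 7321 to 15050 CPM in the COL2A1-led cells of the 4 libraries and to 1693 to 3945 CPM in the ACAN-led cells, with no overlap. GAPDH stood at 2779 against 752 CPM and ENO1 at 1334 against 367 CPM. VEGFA, the vessel growth factor, which was named after its value was seen, stood at 424 against 119 CPM. Antigen presentation genes went the other way, at 996 CPM in COL2A1-led and 1782 CPM in ACAN-led cells.

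Whether the gated cells differed between the peptide groups was asked over the summed counts of each library. CNMD (chromosome 11, 25959192 to 25994773) was higher in the 1797 group and was the 1 gene called among 9196 tested, or 0.0109% of them. The CNMD level was 990 and 1100 CPM in 1797 bone (2351 and 868 UMIs) and 6.96 and 18.3 CPM in control bone (1 and 28 UMIs). The groups did not overlap. The means were 1045 ± 78.0 CPM (SD, n = 2) and 12.6 ± 8.04 CPM (SD, n = 2). The log2 fold change was 6.07 ± 0.49 (SE), with an adjusted p of 0.0218 by edgeR's quasi-likelihood test with Benjamini-Hochberg adjustment. It was called in each of the 11 alternatives, with log2 fold changes from 5.78 to 7.11. The alternative without called doublets repeated the main fit, since 0 gated cells were marked. The count of called genes was 45 without 1797 library 1, 14 without control library 1 and 136 without control library 2.

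The CNMD difference rested on few cells of both groups. CNMD had a UMI in 21 of 68 and 8 of 21 gated cells of the 1797 libraries, and in 1 of 7 and 5 of 33 of the control libraries. The highest counts of single cells were 677, 492, 396 and 279 UMIs in 1797 library 1. In 1797 library 2 they were 294, 192 and 190 UMIs. These cells gave most of the CNMD UMIs of their libraries. Within the COL2A1-led cells alone CNMD stood at 4105 and 2577 CPM against 44.8 and 139 CPM, in 22 and 11 against 2 and 4 cells, a description with no test. The number of COL2A1-led cells among the gated cells and the CNMD level in each cell both enter the summed value.

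Other genes, of cartilage matrix and outside it, lay on the same side without passing the test. COMP stood at 525 and 1062 CPM in 1797 bone against 83.5 and 19.6 CPM in control bone, with an adjusted p of 0.423 by edgeR's quasi-likelihood test. C3H2orf40 stood at 609 and 1294 CPM against 41.8 and 17.7 CPM, with an adjusted p of 0.202 by the same test. APOD, apolipoprotein D, stood at 740 and 994 CPM against 90.5 and 23.6 CPM. CYTL1, a cytokine-like protein of cartilage, had 152 UMIs in the 1797 group and 0 in the control group, and UCMA, a cartilage protein of the growth plate, had 136 and 0. Their sums over all gated cells were set against a floor of 3 UMIs over the control group. Against that assumed floor CYTL1 came to 26.8-fold and UCMA to 23.9-fold, with adjustment for the groups' summed UMIs of 3163586 and 1671273. Only genes with 0 UMIs in the control group and a set minimum in the 1797 group were treated so, which fixed their direction. CHRDL2, MMP1, NRK and CAPN6 were the others, with folds of 19.9, 17.8, 10.6 and 9.86. None of the genes set against the floor was called by edgeR. The folds are no lower bound on the level per cell, since COL2A1-led cells numbered 22 and 11 against 2 and 4. The genes of this paragraph were singled out after their values were seen.

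The rule genes, which chose the cells, are given without a test. COL2A1 stood at 8999 and 12342 CPM in 1797 bone against 4635 and 3001 CPM, COL9A1 at 960 and 1473 CPM against 397 and 198 CPM, and ACAN at 1071 and 1402 CPM against 1629 and 557 CPM. COL2A1 and COL9A1 did not overlap between the groups, and ACAN did.

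Over all genes tested, 18.5% lay higher in both 1797 libraries than in both control libraries and 13.4% lay lower. By list, the members with both 1797 libraries above both control libraries were 15 of 25 tested among other cartilage matrix genes, with a median log2 fold change of 0.72 against 0.02 over all genes tested. For the cartilage collagens outside the rule they were 3 of 5, with a median of 0.94. In the hypertrophy list 1 of 12 lay higher and 5 of 12 lower, with a median of -0.17. The hypoxia and glycolysis list had 12 of 28 higher, with a median of 0.33. In the collagen modification list 2 of 20 lay higher and 4 lower, with a median of -0.09. Apart from CNMD, 0 members of these lists were called by edgeR. At an unadjusted p under 0.05, edgeR gave 316 genes of all those tested, and DESeq2 called 18 at its adjusted p.

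Osteoblast lineage cells, the bone-making class, numbered 1053 (436 and 50 in 1797 bone, 182 and 385 in control bone), with a median of 10671 UMIs against 36904 in the gated cells. Genes used by either gate were left out and library was kept as a block. Of 10717 genes, edgeR's quasi-likelihood test called 949, or 8.86%, with 441 higher in the gated cells (4.11%) and 508 lower (4.74%). Because the cells were chosen on cartilage genes, the direction of other cartilage genes that the same cells carry is not independent of the choice, and is given as a description. The count of called genes was 443 without 1797 library 1, 626 without control library 1, 227 without control library 2, and 345 when 4 rule genes were asked for.

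Cartilage genes outside the rule led the higher side. C3H2orf40 differed by 9.38 ± 0.70 (log2 fold change ± SE), COL9A2 by 8.97 ± 0.63, COMP by 8.72 ± 0.62 and C15H2orf82 by 7.16 ± 0.67, each higher in the gated cells of 4 of 4 libraries. COL9A2 stood at 716 and 1093 CPM in gated cells of the 1797 libraries and at 327 and 91.6 CPM in those of the control libraries. In osteoblast lineage cells COL9A2 stood at 1.43 and 0 CPM, and 0 and 0.803 CPM. The gated cells of every library thus lay above every osteoblast sum. S100A1, a calcium-binding protein that hypertrophic cartilage makes, was steady over libraries, at 354, 260, 320 and 248 CPM in the gated cells of the 4 libraries against 24.1, 8.30, 10.7 and 14.6 CPM in osteoblast lineage cells.

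By list, 4 of 4 tested cartilage collagens and 21 of 21 other cartilage matrix genes were higher, with medians of 5.75 and 3.76 against -0.03 over all genes tested. Collagen modification genes were higher in 16 of 20, with a median of 1.29. PLOD2 differed by 2.05 ± 0.29, LOX by 2.19 ± 0.31 and SERPINH1 by 1.41 ± 0.26, and each passed the test. Fibrous matrix genes were higher in 8 of 10, with COL3A1 at 1.35 ± 0.27 and COL1A2 at 1.58 ± 0.33. The gated cells exceeded the osteoblast class in these collagen I partners as well as in cartilage genes. By the order of the gates, the osteoblast class held only cells that failed the cartilage rule. Of the 129 gated cells, 115 also met the osteoblast gate. The direction of collagen modification and fibrous matrix genes is thus not independent of the gating, and is given as a description.

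Regulators and signals were called in smaller part. Over all genes tested, 4.11% were called higher and 4.74% lower. Of 13 cartilage transcription factors, SOX6 was the 1 called, at 2.39 ± 0.25, and 1 of 13 is not read as a result about the list. Of 18 sugar chain genes, 3 were higher: CHST11, PAPSS2 and CHPF. Among the growth factor genes 11 of 26 were higher and 1 was lower. Those higher included the matricellular gene CTGF (1.86 ± 0.24), the BMP antagonist GREM1 (2.25 ± 0.30), the Wnt antagonist WIF1 (2.66 ± 0.29) and the ligand TGFB2 (1.31 ± 0.23). Of 5 growth plate genes, FGFR3 (2.04 ± 0.32), which restrains growth plate proliferation, GLI2 and GLI3 were higher.

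Hypertrophy genes outside both gates were higher in 4 of 6, namely ENPP1, S100A1, MMP13 and PTH1R, with a median of 1.54. The sums join unlike sets of cells. S100A1 stood at 1308 CPM in COL2A1-led and 13.8 CPM in ACAN-led cells, while MMP13 was higher in the ACAN-led cells, as given above. The 4 genes are thus not read as a program of the same cells. In the list of hypoxia and glycolysis genes 5 of 29 were higher (GAPDH, ENO1, VEGFA, ALDOC and BNIP3). Over all genes tested 4.11% were called higher, and the smaller counts that follow are to be read against that share. In the protease list 3 of 16 were higher, and in the unfolded protein response list 2 of 22, which is near it. Of the immediate early genes, 3 of 19 were higher, and of the inflammatory genes 3 of 19 were higher and 2 lower. Of the proliferation list, TOP2A was lower, at -2.02 ± 0.48, and 0 of the other 9 were called.

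The 12 genes with the largest lower values were CRHBP, RGS5, GUCY1A2, FSTL5, BAALC, ITGA7, DES, NPG4, PCP4, PR39, LOC100620627 and NCR1. RGS5, a pericyte gene, differed by -7.34 ± 0.64 and stood at 528, 172, 51.4 and 199 CPM in the osteoblast class of the 4 libraries against 3.93 CPM or less in the gated cells. DES, desmin of muscle, differed by -6.71 ± 0.75 and ITGA7, a muscle integrin, by -6.71 ± 0.79. PR39, a neutrophil granule peptide, stood at 50.4, 1606, 0.447 and 4755 CPM in the osteoblast class and at 85.1 CPM or less in the gated cells. RGS5, DES, ITGA7 and PR39 are known from cell types other than osteoblasts, and their part in the other differences was not tested.

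Antigen presentation genes were lower in 7 of 14, with a median of -1.30 and 14 of 14 below 0, against 4.74% called lower and 5549 of 10717 below 0 over all genes tested. CD74, the class II chaperone, differed by -2.18 ± 0.36, SLA-DRA by -2.12 ± 0.37 and B2M by -1.21 ± 0.31. The T, B and phagocyte exclusion was worded the same for both gates. A rule of 0 UMIs is stricter in deeper cells, and median depth was 36904 UMIs in the gated cells and 10671 in osteoblast lineage cells. The part of that exclusion in these differences was not tested. Granulocyte genes moved with these genes, as given above.

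**Figure D5:**
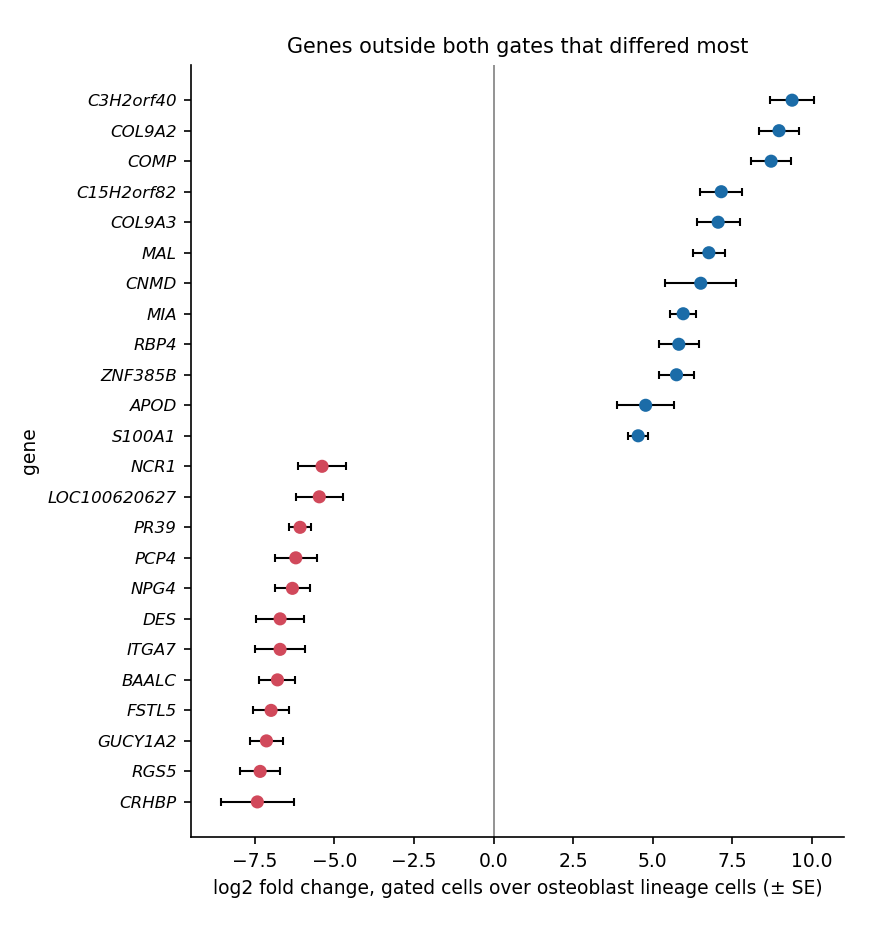
Points give the log2 fold change of gated cells over osteoblast lineage cells from the edgeR fit with library as a block, for the 12 genes with the largest difference each way among those called and on the same side in every library; bars are standard errors. C3H2orf40, COL9A2 and COMP lie furthest to the right, at 9.38, 8.97 and 8.72, and CRHBP, RGS5 and GUCY1A2 furthest to the left, at -7.42, -7.34 and -7.14.

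Fibroblast-like stromal cells numbered 64 (37 and 4 in 1797 bone, 4 and 19 in control bone), with a median of 3768.5 UMIs, so this comparison was shallow. Of 4615 genes tested, 101 were called (2.19%), with 92 higher in the gated cells (1.99%) and 9 lower (0.195%). CHAD, chondroadherin of cartilage, differed by 9.89 ± 1.84 and had 0 CPM in the fibroblast-like cells of all 4 libraries, where the fitted value depends on the prior count. C15H2orf82 differed by 7.99 ± 1.38 and COL11A1 by 5.44 ± 0.57. COL4A1 and COL4A2, basement membrane collagens, were lower, at -4.10 ± 0.67 and -3.40 ± 0.94.

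Several higher genes are better known from bone than from cartilage. By the order of the gates, the fibroblast-like class held only cells that failed the osteoblast gate, which 115 of the 129 gated cells met. The direction of bone genes is thus not independent of the gating, and is given as a description. OMD, osteomodulin of mineralised matrix, differed by 5.35 ± 1.11, COL1A2 by 2.92 ± 0.14 and MMP13 by 3.70 ± 0.74. By list, 3 of 4 cartilage collagens, 7 of 14 other cartilage matrix genes and 3 of 6 hypertrophy genes were called higher, and 0 of 19 collagen modification genes were called by edgeR, although 19 of 19 lay above 0. Of the 18 genes named for this comparison, 4 were called in every alternative: C15H2orf82, COL11A1, MEST and OMD. The count of called genes was 13 without 1797 library 1, 43 without 1797 library 2, 152 without control library 1 and 27 without control library 2.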

How the data were processed

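Single cells of regenerated bone were profiled with a droplet 3′ assay in 4 libraries, 2 per peptide group. The deposited files hold UMI counts per gene and barcode that the authors made with Cell Ranger, version 5.0.0 on Sscrofa11.1 per the submitters' processing notes and version 7.0.1 per the file headers. The values are raw, and each library was deposited with its cells already filtered from empty droplets.

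Barcodes were kept with at least 200 genes, at least 1000 UMIs and under 20% of UMIs in 13 mitochondrial genes. Classes were gated on marker counts, in order, with the cartilage rule first. Part of the marker list of the osteoblast gate is not reported here. Scrublet in scanpy 1.11.5 (expected rate 0.1) marked doublets, which stayed in. Counts were summed per library and class and tested with edgeR 4.0.16 (quasi-likelihood test, TMM, filterByExpr) in R 4.3.3, with Benjamini-Hochberg adjustment and a threshold of 0.05, and the numbers of barcodes in 11 classes were tested the same way. DESeq2 1.42.0 was an alternative. CPM values are counts per 1000000 UMIs of the summed cells. Standard errors were derived from the log2 fold change and the F statistic.

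Named genes were those with an adjusted p under the threshold, a log2 fold change of 1 or more in size and the same direction in every library, up to 12 each way against another class and 10 each way between groups, with the 6 genes of most UMIs in each list. Genes named otherwise are said to be chosen after their values were seen. The members, gates and gene lists were chosen with earlier results of these data known. On simulated counts at a 4-fold and a 16-fold change, the fit between groups recovered 28% and 85% of changed genes over 9196 genes, that against osteoblast lineage cells 89% and 100% over 10717, and that against fibroblast-like cells 17% and 99% over 4615.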

Additional observations from a re-analysis of the deposited data

How the results depend on the processing

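The log2 ratio of the share of gated cells (1.18) stayed above 0 and was not called under the other alternatives, and turned to -0.048 without 1797 library 1. Leaving out 1 library at a time gave -0.0475 to 2.81. Without the rule on CD3E, CD79B and CSF1R it was 0.18.

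Between the peptide groups, 1 gene was called. The count was 129 with no filter on low counts and 18 by DESeq2, and 1 to 136 with 1 library left out. Against osteoblast lineage cells, the 949 calls became 1727 with no filter, 345 with at least 4 rule genes and 569 with no library block, and 227 to 843 with 1 library left out. Against fibroblast-like cells, the 101 calls became 205 with no filter and 285 by DESeq2, and 13 to 152 with 1 library left out. The cause of these changes was not tested. Where a group was left with 1 library, it was assumed to vary like the other group. Of the named genes, 19 of 24 against osteoblast lineage cells and 4 of 18 against fibroblast-like cells were called under every alternative, and 0 changed direction.

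Same-numbered libraries of the groups did not deviate together (r = -0.0831 over 8520 genes), so the numbers were not taken as pairs. With the replicate number as a block, the share's log2 ratio was 1.29 and 3 genes were called between the groups.

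The depth of the gated cells and the 7 cells of control library 1 limit what these sums can show.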

Other observations

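Barcodes outside the gated cells also carried collagen II. The rule that CD3E, CD79B and CSF1R be at 0 removed 23 barcodes in which COL2A1 led the 8 cartilage genes, 12 and 5 of them from 1797 bone and 3 and 3 from control bone. Among B cells of 1797 library 1, COL2A1 had a UMI in 9.57% of 721 barcodes and summed to 903 CPM, against 0.799 to 7.45 CPM in the B cells of the other libraries.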
